A study of Mus musculus with 8 samples.

Results

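The olfactory receptor clusters of mouse chromosomes 2 and 9 are long stretches of the genome filled with members of the Olfr gene family. They were taken as the 10 kb rows of the deposited signal table that lie inside chr2:85200001-90300000 and chr9:37500001-39700000 of the mouse genome build mm9, a rule by position alone. This gave 486 rows on chromosome 2 and 209 rows on chromosome 9, or 695 of the 232039 autosomal rows of 10 kb, and 12 and 5 wider rows in the same windows were left out. Each window was compared with the 5 Mb on each side of it, its flanks of 973 rows (chromosome 2) and 984 rows (chromosome 9), and with all autosomal rows.

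The study profiled tagged histone H3 by chromatin immunoprecipitation and sequencing with an antibody to the HA tag in C3H10T1/2 cells, a mesenchymal progenitor line from C3H mouse embryos. Its 4 lines stably expressed FLAG-HA-tagged H3.3K36M, H3.3WT (wild type), H3.1K36M or H3.1WT, at passages 10 to 15, and each line gave 1 HA library. K36M replaces lysine with methionine in the histone tail. The labels do not give the promoter that drives the tagged histone, its level beside endogenous H3, or whether a line was 1 clone. The HA libraries held 38783917 reads (H3.3K36M), 46749609 (H3.3WT), 41705735 (H3.1K36M) and 35487141 (H3.1WT), recovered from the deposited RPM, which are reads scaled to the library total. With 1 library per line no difference could be tested. The 95% intervals below are exact binomial intervals on the reads. They allow for the sampling of reads alone, and without molecular identifiers the reads need not be separate molecules.

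Olfactory receptors are G-protein-coupled receptors of olfactory sensory neurons, where each neuron uses a single receptor gene and keeps the rest of the family silent. In other cell types the clusters are mostly silent, AT-rich and late replicating. H3.1 is deposited mainly behind the replication fork, and H3.3 is placed at any time of the cell cycle, above all at active genes and regulatory elements. K36M histones inhibit enzymes that methylate lysine 36 of H3, and H3.3K36M is the recurrent change in human chondroblastoma.

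Of 1428 Olfr entries in a RefSeq gene table, a run on chromosome 2 held 293 (222 protein coding and 71 pseudogenes) and a run on chromosome 9 held 127 (95 protein coding, 31 pseudogenes and 1 of another type). In gene order, the run on chromosome 2 lies between Lrrc55, which encodes an auxiliary subunit of a potassium channel, and Ptprj, a receptor-type tyrosine phosphatase. The run on chromosome 9 lies between Panx3, a pannexin channel of skeletal tissue, and Zfp202, a zinc finger factor. Among the Olfr genes were only 3 protein-coding genes of other families on chromosome 2 (Fads2b, Pramel7 and Pramel6) and 3 on chromosome 9 (Vwa5a, AW551984 and Tmem225). This table and the sequences below are of build GRCm38.p6, so they give gene order and composition, and no gene was placed on an mm9 row.

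Promoter windows, from 250 bases before to 50 after the annotated start, are shown 5′ to 3′ with every CG dinucleotide (CpG) in capitals, because they carry the base composition of these clusters. Olfr988 and Olfr160 are the first Olfr gene of each run that has such a window in the RefSeq table, and Zfp202 is the neighbour of another family beside the run on chromosome 9. The Olfr988 window (chr2:85353875-85354174, minus strand, GRCm38.p6) held 1 CpG and 38% G and C. That of Olfr160 (chr9:37712231-37712530, minus strand) held 0 CpG and 46% G and C. That of Zfp202 (chr9:40192066-40192365, plus strand) held 17 CpG and 60.7% G and C.
Olfr988: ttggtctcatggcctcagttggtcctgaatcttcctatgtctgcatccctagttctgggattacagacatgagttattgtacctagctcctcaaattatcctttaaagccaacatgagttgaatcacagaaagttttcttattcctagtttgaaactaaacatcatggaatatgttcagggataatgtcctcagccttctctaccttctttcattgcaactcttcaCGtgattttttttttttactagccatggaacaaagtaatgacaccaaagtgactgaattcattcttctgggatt
Olfr160: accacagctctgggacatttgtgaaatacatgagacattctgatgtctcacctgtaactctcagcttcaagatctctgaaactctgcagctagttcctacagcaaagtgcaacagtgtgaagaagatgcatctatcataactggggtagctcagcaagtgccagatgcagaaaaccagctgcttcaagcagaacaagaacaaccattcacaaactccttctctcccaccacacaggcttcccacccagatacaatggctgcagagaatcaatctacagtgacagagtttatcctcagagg
Zfp202: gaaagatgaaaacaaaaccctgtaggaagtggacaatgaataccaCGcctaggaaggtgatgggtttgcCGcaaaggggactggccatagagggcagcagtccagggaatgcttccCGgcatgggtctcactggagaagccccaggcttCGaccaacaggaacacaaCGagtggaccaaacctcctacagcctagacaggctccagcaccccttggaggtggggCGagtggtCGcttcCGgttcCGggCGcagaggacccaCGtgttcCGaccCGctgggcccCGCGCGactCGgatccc
The other neighbours with a window, Ptprj and Lrrc55, held 6 and 4 CpG. Of the protein-coding Olfr genes, 186 of 222 on chromosome 2 and 79 of 95 on chromosome 9 had a window. These had a median of 1 CpG in both runs and a median of 32% (chromosome 2) and 35.3% (chromosome 9) G and C, against 7 CpG and 53% over 26760 other genes. Olfr genes outside these runs were not taken out of those other genes. No CpG was found in 36% and 30.4% of the Olfr windows, against 5.49% of the others, and 0 Olfr windows in either run held 10 or more, against 44.4% of the others. Some annotated Olfr starts may be the start of the coding sequence, so these windows may not all be promoters.

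The chromosome 2 window carried less H3.3 signal than the autosomes and H3.1 signal close to theirs. Its median row held 2.59 RPM in H3.3K36M, 1.91 in H3.3WT, 3.55 in H3.1K36M and 3.59 in H3.1WT. Over all autosomal rows the medians were 3.03, 2.84, 3.66 and 3.65 RPM for the same libraries in that order. Both H3.3 libraries were therefore lower in the window than over the autosomes, and both H3.1 libraries lay close to it. The chromosome 9 window also had its lowest median in H3.3WT. Its medians were 2.07 RPM (H3.3K36M), 1.70 (H3.3WT), 3.40 (H3.1K36M) and 3.34 (H3.1WT). RPM are scaled to each library's total, so they do not give the amount of H3.1 beside H3.3. For H3.3WT, both windows lay below the median of every autosome, of which the lowest was 2.09 RPM on chromosome 6. For H3.3K36M, the chromosome 9 window lay below every autosome's median, of which the lowest was 2.49 RPM on chromosome 3, and the chromosome 2 window lay above that value. Single rows as low were common over the autosomes, where the lower quartile was 1.81 RPM in H3.3WT and 2.28 in H3.3K36M. The chromosome 2 window medians lay above these quartiles and the chromosome 9 medians below them.

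**Figure D1:**
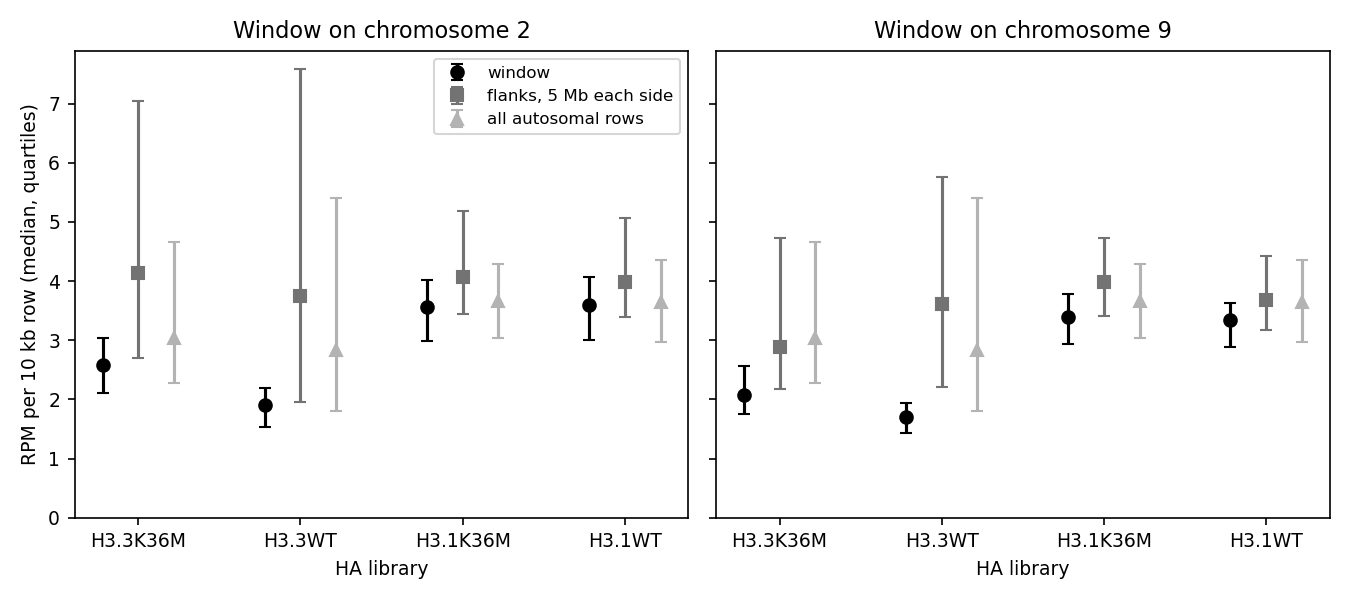
Signal per 10 kb row in the olfactory receptor windows (black circles), their flanks of 5 Mb on each side (dark grey squares) and all autosomal rows (light grey triangles), for the 4 HA libraries on the horizontal axis. Symbols are medians in RPM and bars run between the quartiles over rows, which are not replicates. In H3.3WT the windows sit at 1.91 and 1.70 RPM, against 2.84 RPM over the autosomes, and in both H3.1 libraries the 3 symbols lie close together.

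The summed signal, in which rows of high signal count for more than in a median, set the windows further below the autosomes. Per row, H3.3K36M in the chromosome 2 window was 0.654 of its autosomal mean (0.648 to 0.660) and H3.3WT was 0.465 (0.460 to 0.469), while H3.1K36M was 0.858 and H3.1WT 0.867. In the chromosome 9 window these were 0.563 (0.555 to 0.572) in H3.3K36M, 0.431 (0.424 to 0.437) in H3.3WT, 0.828 in H3.1K36M and 0.806 in H3.1WT. As a ratio of medians to all autosomal rows they were 0.855, 0.674, 0.970 and 0.984 on chromosome 2 and 0.684, 0.598, 0.928 and 0.915 on chromosome 9, in the same order of libraries. H3.3WT was the lowest of the 4 libraries on either scale in both windows.

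Most rows of the windows shared this low H3.3. On chromosome 2, 73.7% of the rows lay below the autosomal median in H3.3K36M and 97.7% in H3.3WT, against 56.0% in H3.1K36M and 52.7% in H3.1WT. On chromosome 9 the shares were 88.0% in H3.3K36M, 96.7% in H3.3WT, 65.1% in H3.1K36M and 76.1% in H3.1WT. Far fewer rows were very low. More than 2-fold below the autosomal median in H3.3K36M were 45 rows of the chromosome 2 window (9.26%) and 30 of the chromosome 9 window (14.4%), against 6.61% of all autosomal rows. In H3.3WT these were 85 rows (17.5%) and 47 rows (22.5%), against 11.9%. In H3.1K36M they were 37 rows (7.61%) and 9 rows (4.31%), against 4.33%, and in H3.1WT 34 rows (7.00%) and 12 rows (5.74%), against 4.48%. The H3.1 shares on chromosome 9 were thus near the background.

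Against its flanks the chromosome 2 window was 0.498 in H3.3K36M (0.493 to 0.503) and 0.368 in H3.3WT (0.364 to 0.371), from summed signal per row, and 0.790 in H3.1K36M and 0.798 in H3.1WT. The flanks were unequal. The median row of the left flank held 3.16 RPM in H3.3K36M and 2.15 in H3.3WT, and that of the right flank held 5.66 in H3.3K36M and 6.46 in H3.3WT. In H3.3WT the window median was therefore 0.890 of the left flank's and 0.296 of the right flank's. From summed signal the window was 0.489 of the left flank and 0.294 of the right flank in H3.3WT, and 0.592 and 0.429 in H3.3K36M.

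On chromosome 9, window over flanks was 0.469 in H3.3K36M, 0.322 in H3.3WT, 0.474 in H3.1K36M and 0.511 in H3.1WT from summed signal. A single row of the left flank, chr9:35110001-35120000, held 1001 RPM (H3.3K36M), 1111 (H3.3WT), 2836 (H3.1K36M) and 2387 (H3.1WT), and moved these ratios. Without it, an alternative added after the data were seen, the log2 ratios were −0.75 in H3.3K36M and −1.30 in H3.3WT, and −0.31 in H3.1K36M and −0.27 in H3.1WT. The ratios of medians were 0.717, 0.470, 0.855 and 0.908 in the same order of libraries, so H3.3WT was again the lowest.

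Within the windows, H3.3K36M was higher than H3.3WT. Per row it averaged 2.62 RPM in H3.3K36M and 1.87 in H3.3WT on chromosome 2, a ratio of 1.40 (1.38 to 1.42, log2 0.49). On chromosome 9 it averaged 2.26 RPM in H3.3K36M and 1.73 in H3.3WT, a ratio of 1.30 (1.27 to 1.33, log2 0.38). The flanks gave 1.04 on chromosome 2 and 0.894 on chromosome 9, and all autosomal rows 0.995. The log2 ratio was 0.44 above that of the flanks on chromosome 2 (0.42 to 0.46) and 0.54 above on chromosome 9 (0.51 to 0.57). The flanks on chromosome 2 were unequal here too: the window was 0.28 above the left flank and 0.54 above the right. In the left flank 78.4% of the rows were higher in H3.3K36M, and its median row ratio was 0.33, against 0.40 in the window, both log2. The median row ratio over the autosomes was itself 0.10 on the log2 scale. Relative to that shift the summed ratios were 0.39 on chromosome 2 and 0.28 on chromosome 9.

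The difference was broad and mostly under 2-fold. Of the rows whose 4-library mean reached 0.5 RPM, 481 of 486 on chromosome 2 and 209 of 209 on chromosome 9, H3.3K36M was the higher library in 454 (94.4%) and 177 (84.7%), against 57.7% of all autosomal rows. At least 2-fold higher, in log2 of RPM plus 0.1, which understates the change of low rows, were 31 rows on chromosome 2 (6.44%) and 9 on chromosome 9 (4.31%), against 3.04% of all autosomal rows. At least 2-fold lower were 1 row on chromosome 2 (0.208%) and 0 on chromosome 9, against 1.9%. The flanks on chromosome 2 held 37 rows 2-fold higher (3.82%) and 1 row 2-fold lower (0.103%). Of the 37 rows, 28 were in the left flank (5.76%), close to the share of the window, and 9 in the right flank (1.86%). The flanks on chromosome 9 held 1 row higher (0.102%) and 33 lower (3.36%).

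The H3.1 pair did not show this difference. Its mean was 3.43 RPM in H3.1K36M and 3.45 in H3.1WT on chromosome 2, a ratio of 0.993 (0.982 to 1.004), and 3.31 in H3.1K36M and 3.21 in H3.1WT on chromosome 9, a ratio of 1.03 (1.01 to 1.05). The flanks gave 1.003 on chromosome 2 and 1.11 on chromosome 9, where the sum includes the single row of high signal given above. The log2 ratio of the window minus that of the flanks was −0.015 on chromosome 2 (−0.034 to 0.004). On chromosome 9 it was −0.11 (−0.13 to −0.08), in the other direction from the H3.3 pair. In neither window was a row 2-fold higher, against 0.0122% of all autosomal rows, or 2-fold lower, against 0.0638%.

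**Figure D2:**
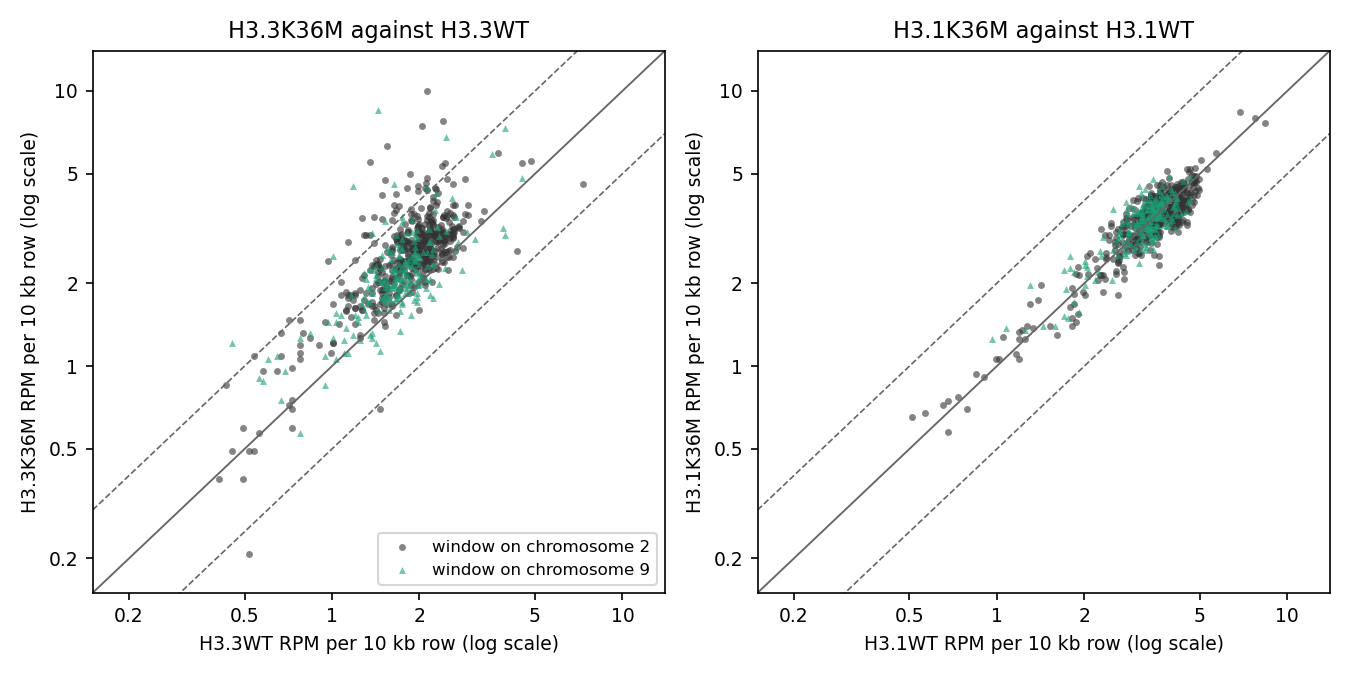
Each point is a 10 kb row of an olfactory receptor window whose 4-library mean reached 0.5 RPM, on chromosome 2 (circles) or chromosome 9 (triangles), on log axes in RPM. The left panel sets H3.3K36M (vertical) against H3.3WT (horizontal) and the right panel H3.1K36M against H3.1WT, with a solid line at equal signal and dashed lines at 2-fold. Most H3.3 points lie above the solid line, 454 of 481 on chromosome 2 and 177 of 209 on chromosome 9, and the H3.1 points lie along it.

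Ratios of H3.3K36M over H3.3WT of this size were also found elsewhere. Outside the windows the autosomes were divided into 4736 tiles of 500 kb, whose median log2 ratio was 0.07 (5th to 95th percentile −0.58 to 0.69). Of these, 1608 tiles (34.0%) had an H3.3WT median at or below 2.11 RPM, the highest among the window segments. They had a median log2 ratio of 0.46 (quartiles 0.31 and 0.59), and 96.5% were above 0. The window values of 0.49 and 0.38 lie inside those quartiles. These tiles were chosen on H3.3WT, which is also in the ratio, so their values are a description.

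Between the variants, H3.3 had fewer RPM than H3.1 in both windows. H3.3WT was 0.542 of H3.1WT on chromosome 2 (0.535 to 0.548) and 0.540 on chromosome 9 (0.529 to 0.551). The median row ratio was −0.86 and −0.92 on the log2 scale, against −0.40 over all autosomal rows, −0.27 in the flanks on chromosome 2 and −0.15 in those on chromosome 9. On chromosome 2 the left flank had −0.68, nearer to the window than the right flank at 0.30. At least 2-fold lower in H3.3WT were 141 rows on chromosome 2 (29.3%) and 74 on chromosome 9 (35.4%), against 17% of all autosomal rows, and 1 and 0 rows were 2-fold higher, against 10.8%. The median autosomal row was itself lower in H3.3WT, by the −0.40 above. With each pair scaled to its median autosomal ratio, the log2 ratio was −0.48 in both windows, and the rows 2-fold lower numbered 3 on chromosome 2 and 5 on chromosome 9. The autosomal share 2-fold lower was not counted under this scaling, so these 3 and 5 rows have no background beside them.

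With K36M the gap between the variants was smaller. H3.3K36M was 0.764 of H3.1K36M on chromosome 2 (0.755 to 0.773) and 0.682 on chromosome 9 (0.669 to 0.694). At least 2-fold lower were 14 rows on chromosome 2 (2.91%) and 25 on chromosome 9 (12.0%), against 3.3% of all autosomal rows, and 2 and 3 rows were 2-fold higher, against 8.48%. The chromosome 2 share was near the background. The median row ratio was −0.44 on chromosome 2 and −0.69 on chromosome 9, against −0.30 over the autosomes, and −0.12 and −0.52 in the flanks. With each pair scaled to its median autosomal ratio, the log2 ratio of the summed signal was −0.093 on chromosome 2 and −0.26 on chromosome 9, in place of −0.39 and −0.55. Rows 2-fold lower then numbered 1 and 2, and rows 2-fold higher 5 and 4. The autosomal shares under this scaling were not counted. The scaling raises H3.3K36M over H3.1K36M, so the autosomal share 2-fold higher was at least the unscaled 8.48%. The 5 and 4 rows were a smaller share than that.

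Along the windows the order of the libraries held in most 100 kb steps, while the levels dipped in places in all of them. The lowest step of the chromosome 2 window, centred 4.85 Mb from its start, had medians of 1.09 RPM (H3.3K36M), 0.699 (H3.3WT), 1.34 (H3.1K36M) and 1.22 (H3.1WT). The H3.3K36M median was above that of H3.3WT in 51 of 51 steps on chromosome 2 and 22 of 22 on chromosome 9. H3.3K36M was below H3.1K36M in 49 and 22 of these steps, and H3.3WT below H3.1WT in 51 and 22. H3.1K36M was above H3.1WT in 25 of 51 and 12 of 22.

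**Figure D3:**
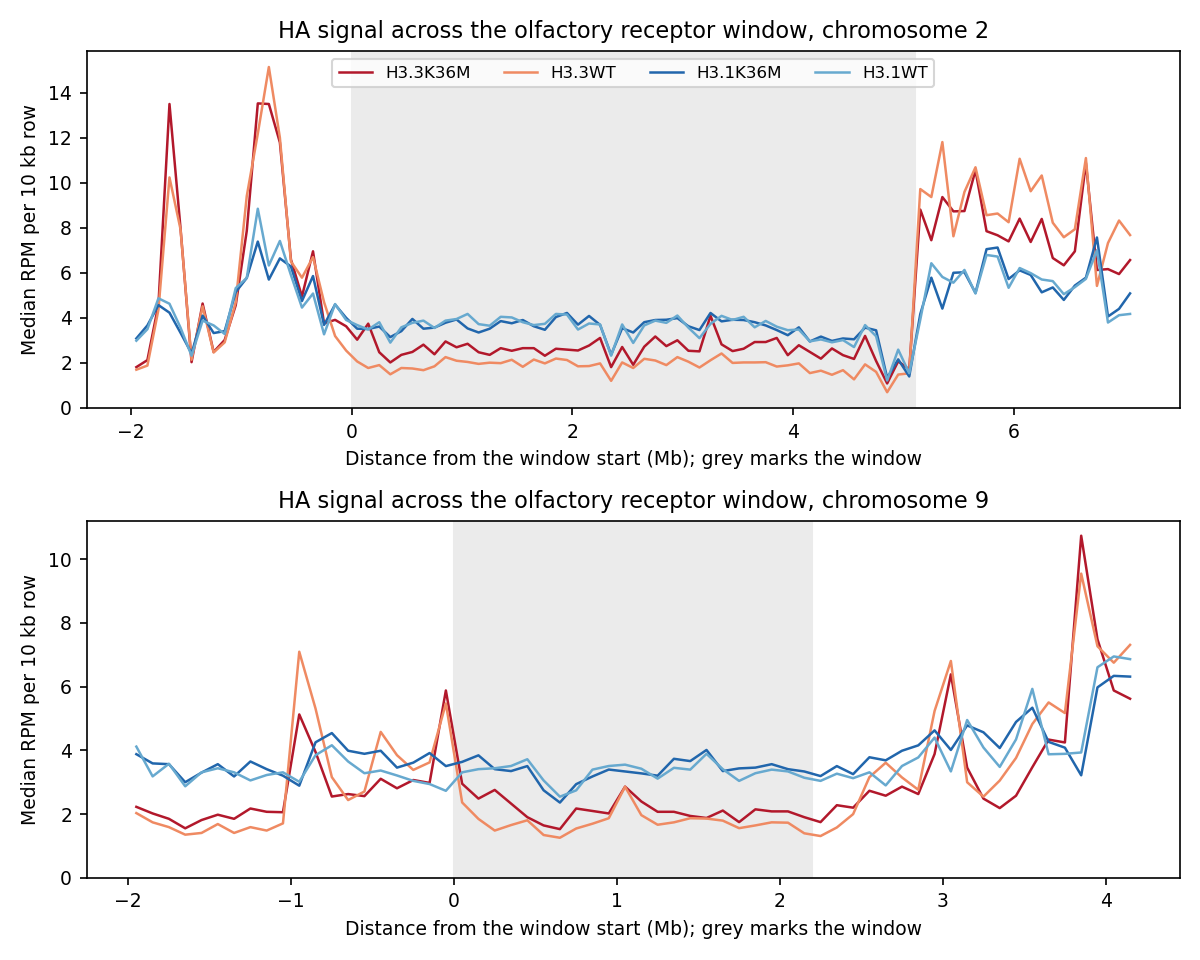
Median RPM per 10 kb row in 100 kb steps for the 4 HA libraries, against the distance in Mb from the window start, with the olfactory receptor window in grey and 2 Mb on each side. On chromosome 2 (top) H3.3K36M lies below H3.1K36M in 49 of 51 steps and H3.3WT below H3.1WT in 51. All 4 libraries step up past the right end, the H3.3 pair to higher medians than the H3.1 pair. On chromosome 9 (bottom) the low H3.3 runs past the right end, and low H3.3 is also seen more than 1 Mb left of the start.

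In 500 kb segments the summed log2 ratio in the H3.3 pair on chromosome 2 was between 0.33 and 0.69 in the first 10 of 11 segments. The last segment, only 100 kb long, had −0.30. On chromosome 9 it was between 0.16 in the third segment and 0.56 in the first of 5. The H3.1K36M over H3.1WT log2 ratio stayed between −0.13 and 0.02 on chromosome 2, and between 0.00 and 0.09 on chromosome 9. The H3.3 ratio varied more between segments than the H3.1 ratio.

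**Figure D4:**
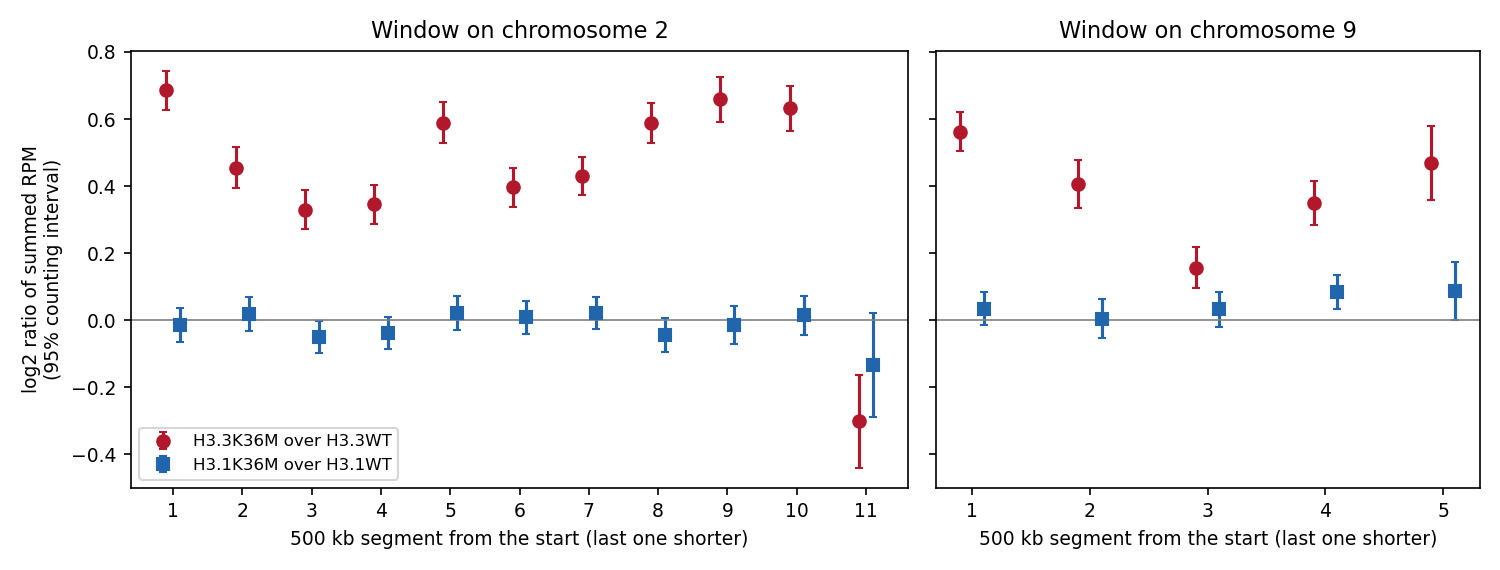
Log2 ratio of summed RPM in consecutive 500 kb segments of each window, numbered from its start (the last is 100 kb on chromosome 2 and 200 kb on chromosome 9), with 95% counting intervals. H3.3K36M over H3.3WT (circles) lies above 0 in 10 of 11 segments on chromosome 2 and 5 of 5 on chromosome 9, and H3.1K36M over H3.1WT (squares) lies between −0.13 and 0.09.

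The right end of the chromosome 2 window was sharp. Its last 100 kb had medians of 1.71 RPM (H3.3K36M), 1.54 (H3.3WT), 1.40 (H3.1K36M) and 1.54 (H3.1WT), and the next 100 kb outside had 8.81, 9.72, 4.17 and 3.92. Row by row, all 4 libraries rose within the last 30 kb of the window, but from a row that was itself a dip. Before the dip, the row 5050 kb from the window start held 2.62 RPM in H3.3K36M and 2.52 in H3.3WT. It held 2.53 in H3.1K36M and 3.48 in H3.1WT. The row chr2:90270001-90280000 held 0.699 RPM in H3.3K36M and 1.46 in H3.3WT. The next, chr2:90280001-90290000, held 2.62 in H3.3K36M and 4.34 in H3.3WT, and the last, chr2:90290001-90300000, held 4.58 in H3.3K36M and 7.31 in H3.3WT. Over the same 3 rows H3.1K36M rose as well, from 0.675 to 2.22 and 3.64 RPM, and H3.1WT from 0.566 to 2.58 and 3.65. Only in the last row were both H3.1 libraries above the row before the dip. H3.3K36M was the lower of the H3.3 pair in these 3 rows of the last segment, and 2 of them were among the 3 lowest ratios of the window. The last row had the highest H3.3WT of the window.

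The left end of that window was gradual. The first 100 kb inside had a median of 3.03 RPM in H3.3K36M and 2.06 in H3.3WT. Outside it the medians were 3.63 in H3.3K36M and 2.55 in H3.3WT at 0 to 100 kb, and 3.91 and 3.19 at 100 to 200 kb. By 700 to 800 kb they were 13.5 and 15.1. H3.3K36M over H3.3WT, from summed signal, was 0.42 and 0.50 (log2) in the first 200 kb outside, −0.12 in the next 100 kb, and between −0.14 and 0.09 beyond that to 1 Mb.

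On chromosome 9 the start was marked and the end was not. The 100 kb before the start had a median of 5.88 RPM in H3.3K36M and 5.47 in H3.3WT, and the first 100 kb inside had 2.95 in H3.3K36M and 2.37 in H3.3WT. Past the end, H3.3 stayed low for 300 kb, with medians of 1.75, 2.28 and 2.20 RPM in H3.3K36M and 1.31, 1.58 and 2.00 in H3.3WT. There the summed log2 ratio in the H3.3 pair was 0.46, 0.42 and 0.15, and it was −0.19 in the next 100 kb. The window as defined thus stops inside the stretch of low H3.3. With both windows trimmed by 500 kb at each end, the log2 ratio on chromosome 9 was 0.25 in place of 0.38.

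A few rows stood far above the rest in H3.3K36M. The rows below were ranked on the same reads that give their values, so their folds tend to be overstated. On chromosome 2 the highest ratio was at chr2:89810001-89820000, with 9.97 RPM in H3.3K36M, 2.13 in H3.3WT, 3.62 in H3.1K36M and 3.59 in H3.1WT. The H3.3K36M over H3.3WT ratio there was 4.68 (3.75 to 5.90). It was also the row with the most H3.3K36M in the window, and the other 3 libraries had ordinary values. The row chr2:85370001-85380000 held 6.29 RPM in H3.3K36M and 1.55 in H3.3WT, a ratio of 4.07 (3.11 to 5.37). The row chr2:89220001-89230000 held 5.52 in H3.3K36M and 1.35 in H3.3WT, a ratio of 4.07 (3.06 to 5.48). The other rows with the most H3.3K36M were chr2:87440001-87450000, with 7.80 RPM in H3.3K36M and 2.41 in H3.3WT, and chr2:89030001-89040000, with 7.46 in H3.3K36M and 2.04 in H3.3WT.

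On chromosome 9 the highest ratio was at chr9:37750001-37760000, with 8.55 RPM in H3.3K36M, 1.44 in H3.3WT, 2.84 in H3.1K36M and 2.80 in H3.1WT. The ratio of 5.93 (4.55 to 7.84) was the highest of either window. Next came chr9:39320001-39330000, with 4.51 RPM in H3.3K36M and 1.18 in H3.3WT, and chr9:38260001-38270000, with 4.58 in H3.3K36M and 1.63 in H3.3WT. Other rows with much H3.3K36M were chr9:37540001-37550000, with 7.33 RPM in H3.3K36M and 3.93 in H3.3WT, and chr9:37610001-37620000, with 6.79 in H3.3K36M and 2.47 in H3.3WT.

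The rows 2-fold higher in H3.3K36M were partly single rows and partly adjoining rows. On chromosome 2 the 31 rows formed 22 runs, 17 of them single rows and 4 of them 2 adjoining rows. The longest was 60 kb, chr2:85340001-85400000, with means of 4.69 RPM (H3.3K36M), 1.81 (H3.3WT), 3.68 (H3.1K36M) and 3.44 (H3.1WT). On chromosome 9 the 9 rows formed 8 runs, 7 of them single rows. The longest was 20 kb, chr9:37750001-37770000, with means of 5.80 (H3.3K36M), 1.41 (H3.3WT), 2.90 (H3.1K36M) and 3.16 (H3.1WT). In these runs H3.3WT was slightly below the window medians.

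Of the 3 rows per window with the most H3.3WT, 1, on chromosome 9, was also among the 3 with the most H3.3K36M. On chromosome 2, after the last row of the window, they were chr2:88490001-88500000 and chr2:88480001-88490000. The first held 5.54 RPM (H3.3K36M), 4.84 (H3.3WT), 7.66 (H3.1K36M) and 8.38 (H3.1WT), and the second 5.49, 4.52, 8.36 and 6.88 in the same order. All 4 libraries were high at this pair of adjoining rows. On chromosome 9 the top rows were chr9:38520001-38530000, with 4.84 RPM in H3.3K36M and 4.52 in H3.3WT, its neighbour chr9:38530001-38540000, with 3.004 in H3.3K36M and 3.96 in H3.3WT, and chr9:37540001-37550000, named above among the rows with much H3.3K36M. H3.1 was not raised there, with 2.94 RPM in H3.1K36M and 3.11 in H3.1WT at the first of them.

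The lowest ratios on chromosome 2 included adjoining rows at the right end. The ratio was 0.478 (0.294 to 0.757) at chr2:90270001-90280000, with 27 reads in H3.3K36M and 68 in H3.3WT, and 0.602 (0.470 to 0.769) at chr2:90280001-90290000, with 101 and 202 reads. The lowest of all, chr2:88010001-88020000, held 8 reads in H3.3K36M and 24 in H3.3WT, or 0.207 and 0.516 RPM. On log2(RPM + 0.1) it was the only row of either window 2-fold lower in H3.3K36M, and with 0.01 in place of 0.1 the count was 2 on chromosome 2. On chromosome 9 the lowest were chr9:38530001-38540000, given above, chr9:38050001-38060000, with 22 reads in H3.3K36M and 36 in H3.3WT, and chr9:38770001-38780000, with 44 reads in H3.3K36M and 68 in H3.3WT. The intervals of the last 2 ratios, 0.413 to 1.29 and 0.521 to 1.16, include 1.

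Some rows of the chromosome 2 window had almost no signal in any library. The row chr2:89070001-89080000 held 0 reads in H3.3K36M, 0 in H3.3WT, 1 in H3.1K36M and 2 in H3.1WT. The wider row before it, chr2:89050001-89070000, held 2, 3, 2 and 4 reads in that order. The other 4 rows under the filter held between 0.28 and 0.57 RPM in every library. The input libraries were not analysed here, so these rows, and the windows as a whole, were not set beside input DNA.

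Rows within a window differed by more than counting error. On the log2 scale the SD over rows of the chromosome 2 window was 0.56 in H3.3K36M, 0.48 in H3.3WT, 0.49 in H3.1K36M and 0.49 in H3.1WT, where counting alone gives 0.16, 0.16, 0.13 and 0.14. On chromosome 9 it was 0.51 in H3.3K36M, 0.45 in H3.3WT, 0.35 in H3.1K36M and 0.36 in H3.1WT. Over all autosomal rows the SD was 0.81 in H3.3K36M and 0.98 in H3.3WT, and 0.48 in H3.1K36M and 0.50 in H3.1WT. Both H3.3 libraries were thus more even in the windows than over the autosomes. H3.1 was near its autosomal SD on chromosome 2 and below it on chromosome 9, where H3.3 was less even than H3.1. Across the 481 rows of chromosome 2, log2 signal in H3.3WT and H3.1WT had a Pearson r of 0.836, and across the 209 rows of chromosome 9 an r of 0.675, against 0.498 over all autosomal rows. For H3.3K36M with H3.1K36M these were 0.773 and 0.539, against 0.512. By rank (Spearman) the chromosome 9 value of this pair was 0.44, slightly below the 0.46 over all autosomal rows. For H3.3K36M with H3.3WT the Pearson r was 0.779 and 0.705, below the 0.859 over all autosomal rows. In the flanks r was 0.667 (chromosome 2) and 0.424 (chromosome 9) for H3.3WT with H3.1WT. For H3.3K36M with H3.1K36M it was 0.642 and 0.436 there, so the chromosome 9 window did not stand above the flanks on chromosome 2 in that pair. The libraries share the sequence and mapping of each row, and rows are not replicates.

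The deposited peak lists held few intervals here. Of 8218 autosomal H3.3K36M peaks, 2 lay in the chromosome 2 window, or 0.392 per Mb, and 59 in its flanks, or 5.9 per Mb. The chromosome 9 window held 0 and its flanks 42, or 4.2 per Mb, and the autosomes as a whole held 3.32 per Mb. The 2 peaks were chr2:89221001-89222800, of 1.8 kb, and chr2:89813201-89816000, of 2.8 kb. They lie inside rows with the third highest and the highest H3.3K36M over H3.3WT ratio of that window, from the same library. Of 73 autosomal H3.1K36M peaks, 0 lay in either window and 1 in the flanks on chromosome 2. The lists hold positions only, and the sources used here do not say how peaks were called.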

How the data were processed

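The series holds 8 samples: for each of 4 C3H10T1/2 lines, 1 HA ChIP library, used here, and 1 input library, not used here. Groups follow the genotype field, since an H3.1 name opens the title of each H3.3 ChIP sample. The protocol text names a Cbx2 antibody and the sample descriptions an HA antibody, and the descriptions were followed.

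Bowtie 1.0.0 and the build mm9 are named, per the submitters' processing notes. The authors deposited RPM per genomic row and lists of peak positions. How reads were counted, duplicates handled and peaks called is not given in the labels or files used here. Divided by the smallest value of its column, each deposited RPM value (100%) was whole within 0.01 read, so reads per row were recovered. The steps were 0.0259 RPM (H3.3K36M), 0.0215 (H3.3WT), 0.0241 (H3.1K36M) and 0.0283 (H3.1WT). The median row of both windows held 93, 85, 145 and 123 reads in that order, and the median autosomal row 117, 132, 152 and 129.

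From these values, ratios of summed RPM were computed with exact (Clopper-Pearson) 95% intervals, and rows were counted at 2-fold on log2(RPM + 0.1) where the mean was at least 0.5 RPM. This is a rule of size, as no test can be made with 1 library per line. Rows named in the text are the 3 highest and 3 lowest by H3.3K36M over H3.3WT and the 3 highest in each H3.3 library per window, the longest runs and every peak in a window. The windows, rules and lists were chosen with earlier results of these data known. Rows wider than 10 kb were left out. Gene order and promoter windows are from RefSeq tables of GRCm38.p6, another build. The alternatives tried were other flank lengths, medians, trimmed windows, wider rows, the top 1% of rows left out, scaling, pseudocounts and filters. The ratio and counting steps were tested on simulated data. The software was Python 3.11.15 with scipy 1.17.1, pandas 2.3.3, numpy 2.4.6 and matplotlib 3.10.9.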

Additional observations from a re-analysis of the deposited data

How the results depend on the processing

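No log2 ratio changed sign over the alternatives, which gave 174 values of 42 results. Scaling to the median autosomal ratio did turn the balance of 2-fold rows between H3.3K36M and H3.1K36M, to more higher than lower in both windows. With scaling, the higher rows were still a smaller share than over all autosomal rows. A pseudocount of 1 RPM also turned this balance on chromosome 2, to 1 higher and 0 lower. It left 2 higher and 2 lower on chromosome 9. Scaled, H3.3WT against H3.1WT had 3 rows higher and 3 lower on chromosome 2. Of the 174 values, 81 stayed within their counting interval or within 1.5 times the count, and 93 moved. No paired analysis was possible because each line has 1 HA library. Log2 values are given for H3.3K36M, H3.3WT, H3.1K36M and H3.1WT in that order.

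Window over flanks moved with the flank length and with the use of medians. With flanks of 2 Mb it was −1.46, −2.04, −0.56 and −0.57 on chromosome 2, and −0.68, −1.14, −0.24 and −0.22 on chromosome 9. With flanks of 10 Mb it was −2.29, −2.82, −2.87 and −2.75 on chromosome 2, and −0.74, −1.25, −0.71 and −0.60 on chromosome 9. The 10 Mb flanks on chromosome 2 include the row chr2:98500001-98510000, which alone held 66.1%, 68.8%, 84.1% and 82.5% of their reads. Without the highest flank row on chromosome 9, an alternative chosen after seeing the data, it was −0.75, −1.30, −0.31 and −0.27. From medians it was −0.68, −0.97, −0.20 and −0.15 on chromosome 2, and −0.48, −1.09, −0.23 and −0.14 on chromosome 9. Without the top 1% of rows it was −0.87, −1.30, −0.30 and −0.26 on chromosome 2, and −0.72, −1.27, −0.31 and −0.26 on chromosome 9. With windows trimmed by 500 kb it was −0.99, −1.41, −0.29 and −0.28 on chromosome 2, and −1.21 (H3.3K36M), −1.12 (H3.1K36M) and −1.005 (H3.1WT) on chromosome 9.

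Window over all autosomal rows was, from medians, −0.23, −0.57, −0.043 and −0.023 on chromosome 2, and −0.55, −0.74, −0.11 and −0.13 on chromosome 9. Without the top 1% of rows it was −0.51, −1.002, −0.11 and −0.10 on chromosome 2, and −0.71, −1.10, −0.15 and −0.20 on chromosome 9.

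H3.3K36M over H3.3WT, on the log2 scale, was 0.39 and 0.28 (chromosomes 2 and 9) when scaled to the median autosomal ratio, 0.40 and 0.30 as the median of row ratios, and 0.25 on chromosome 9 with trimmed windows. H3.3WT over H3.1WT was −0.48 and −0.48 when scaled, −0.86 on chromosome 2 as the median of row ratios, and −0.85 on chromosome 9 with trimmed windows. H3.3K36M over H3.1K36M was −0.093 and −0.26 when scaled, −0.44 and −0.69 as the median of row ratios, and −0.42 and −0.63 with trimmed windows.

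Counts of rows at 2-fold moved with scaling and pseudocount. Shares over all autosomal rows were not recounted under these alternatives. Scaled, H3.3WT was lower than H3.1WT in 3 rows on chromosome 2 and 5 on chromosome 9 and higher in 3 on chromosome 2. H3.3K36M was then lower than H3.1K36M in 1 and 2 rows and higher in 5 and 4, and lower than H3.3WT in 2 on chromosome 2. With a pseudocount of 1 RPM, H3.3K36M was higher than H3.3WT in 8 rows on chromosome 2 and 4 on chromosome 9, and lower in 0 on chromosome 2. H3.3WT was then lower than H3.1WT in 7 and 5 rows and higher in 0 on chromosome 2. H3.3K36M was lower than H3.1K36M in 0 and 2 rows and higher in 1 on chromosome 2. With 0.01 RPM, H3.3K36M was lower than H3.3WT in 2 rows on chromosome 2. With a filter of 1 RPM, H3.3K36M was lower than H3.3WT, and H3.3WT higher than H3.1WT, in 0 rows on chromosome 2. Where no cause is named above, the cause was not tested. At this depth, counting alone gives a single window row an SD of 0.16 to 0.17 (log2) in the H3.3 libraries.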
